A study of Mus musculus with 12 samples.

Results

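The immunity-related GTPases (IRG family) were followed on an array of 45281 probes through the 11 probes annotated to 6 member genes: Irgm1, Irgm2, Igtp, Iigp1, Ifi47 and Tgtp1. The members were chosen by gene symbol, with no measured value in the rule. The choice was made with earlier results of these data known. On the array, 19057 genes were named. Irgm1 had 3 probes, Iigp1 had 4, and each of the other members had 1. The samples were mouse embryonic fibroblasts (MEFs), cultured connective tissue cells, with C57BL/6J as the labelled strain. Wild-type cells (WT, Ulk1/2+/+) and double knockout cells (DKO, Ulk1/2-/-) were each left untreated or given mouse interferon beta (IFNβ) at 2500 IU/ml for 6 h. Each of the 4 groups had 3 arrays. Ulk1 and Ulk2 encode related kinases known for starting autophagy, and the study's title asks about the part of ULK1 in type I interferon signalling. The labels do not give how many embryos, clones or cultures stand behind the arrays, so p-values measure the spread between these samples, which may be technical.

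IRG proteins are GTPases that interferons induce in mouse cells and that act against parasites and bacteria living inside membrane vacuoles. The effector members, here Iigp1 (Irga6), Ifi47 (Irgd) and Tgtp1 (Irgb6), load onto the vacuole membrane of Toxoplasma gondii and disrupt it. The regulatory members Irgm1, Irgm2 and Igtp (Irgm3) sit on the cell's own membranes and hold the effectors in their inactive state there, and autophagy proteins of the Atg5 and Atg16l1 conjugation machinery are needed for the effectors to reach the vacuole. Type I interferon acts on promoters through the interferon-stimulated response element (ISRE), bound by a complex that contains STAT2 and IRF9, and the gamma-activated site (GAS) is a second interferon-responsive element.

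Promoter stretches are shown because the members rose together under IFNβ and because these are the letters that both kinds of element use. The RefSeq windows (GRCm38.p6) ran from 250 bases before to 50 bases after each annotated start, and 5 members on chromosome 11 were read. They were searched on both strands for GAAANNGAAA, the core of the ISRE, and TTCNNNGAA, the GAS. Of 32851 mouse windows of the same length, 3.44% held the first, 8.3% held the second and 0.454% held both. The windows of Irgm2, Igtp and Tgtp1 held both motifs, that of Irgm1 held the ISRE core at 2 overlapping places and no GAS, and that of Ifi47 held neither. In the stretches below, 5′ to 3′ on the gene's strand, capitals mark the matches. They lie at chr11:48871405-48871480 (Irgm1, minus strand), chr11:58214872-58214952 (Irgm2, plus strand), chr11:58199481-58199561 (Igtp, plus strand) and chr11:48992284-48992364 (Tgtp1, minus strand).
Irgm1: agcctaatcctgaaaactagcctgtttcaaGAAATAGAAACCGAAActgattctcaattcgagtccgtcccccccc
Irgm2: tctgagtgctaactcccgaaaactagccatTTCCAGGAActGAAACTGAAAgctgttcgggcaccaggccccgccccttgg
Igtp: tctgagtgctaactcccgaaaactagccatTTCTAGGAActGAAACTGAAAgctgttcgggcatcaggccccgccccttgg
Tgtp1: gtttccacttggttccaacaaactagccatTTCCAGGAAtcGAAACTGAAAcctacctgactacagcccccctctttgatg
In Irgm2, Igtp and Tgtp1 the GAS letters stood just ahead of the ISRE core. Igtp and Irgm2 are neighbouring genes whose windows shared an unbroken run of 61 bases. A match is a run of letters, and binding was not measured.

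Between 30.3% and 33.7% of all probes were detected per array, where detected means a deposited detection p-value under 0.01. The targeted genes Ulk1 and Ulk2 were both detected on all 6 WT arrays, and on 0 of the 6 from DKO cells. Of 15 fibroblast markers, 11 were detected on all 12 arrays, but Pdgfra and Dcn were detected only on the 6 WT arrays, and the mean marker level was 8.35 to 8.71 in WT and 7.95 to 8.11 in DKO (log2). Of 9 leukocyte markers, 8 were undetected on every array, and Cd14 was detected on all. Of 5 epithelial markers none was detected on all arrays, and their mean was 4.31 to 4.47 in WT and 4.56 to 4.77 in DKO. Xist was detected on the 6 DKO arrays only and Eif2s3y on the 6 WT arrays only, so genotype and the sex of the cultures cannot be told apart. Median intensity split the arrays into a set of 6 at 86.5 to 87.9 (4 WT, 2 DKO) and a set of 6 at 97.5 to 99.7 (2 WT, 4 DKO). The part of markers, sex and set in the genotype differences was not tested, apart from the values by set given below.

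Of the 11 member probes, 8 were tested, having been detected on at least 3 arrays. The 5 probes detected on all 12 arrays were 2 of Irgm1 and those of Irgm2, Igtp and Ifi47, and counts are given for these 5, which the filter admits whatever the groups do. The third Irgm1 probe was undetected in untreated WT cells and detected in the other 3 groups. Tgtp1 and 1 Iigp1 probe were detected on the 6 treated arrays and on no untreated array, so their rise under IFNβ was needed for them to be tested. The other 3 Iigp1 probes were detected on 1, 0 and 0 arrays and were not tested. In bulk RNA, fewer cells expressing a gene and less RNA per cell cannot be told apart. Levels below are background-corrected, quantile-normalized log2 intensities, values in a list run from replicate 1 to 3, and a level of 1 probe is not comparable with that of another.

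IFNβ raised every IRG probe detected on all arrays, in both genotypes. In WT cells all 5 rose, where 7.37% of all tested probes rose, and in DKO cells all 5 rose, where 5.72% of all tested probes rose. The rises ran from 2.56-fold for 1 Irgm1 probe to 40.4-fold for Ifi47 in WT cells, and from 1.64-fold to 12.2-fold for the same probes in DKO cells. For the 4 genes behind these probes, each by its brightest probe, the median log2 change was 4.59 in WT and 2.68 in DKO, beside -0.06 and -0.06 over all tested probes.

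Irgm1, the regulator whose loss in mice gives the widest susceptibility to intracellular pathogens, read 7.92, 7.73 and 7.58 in untreated WT cells and 11.05, 11.17 and 10.88 after IFNβ on probe ILMN_1234539. In DKO cells the same probe read 9.78, 9.56 and 9.57 untreated and 11.30, 11.31 and 10.97 treated. Untreated WT was lowest, untreated DKO lay between, and the treated arrays of both genotypes were highest and overlapped each other. The log2 change was 3.29 ± 0.13 (SE, n = 3 against 3) in WT, 9.77-fold, and 1.56 ± 0.13 in DKO, 2.95-fold (limma adjusted p = 3.1e-10 and 1.3e-06).

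The brightest Irgm1 probe, ILMN_2804037, gave the same order with smaller steps. It read 11.70, 11.89 and 12.06 in untreated WT, 12.60, 12.73 and 12.69 in untreated DKO, 13.23, 13.27 and 13.22 in treated WT, and 13.40, 13.45 and 13.31 in treated DKO. No pair of the 4 groups overlapped on this probe. Its rises were 1.36 ± 0.11 in WT and 0.72 ± 0.11 in DKO (limma adjusted p = 4.2e-07 and 4.1e-04). The dim probe ILMN_2711172 went from 4.44, 4.38 and 4.60, where it was not detected, to 6.34, 6.75 and 7.04 in WT, at least 3.49-fold higher (limma adjusted p = 1.5e-05). In DKO it went from 5.49, 5.82 and 5.64 to 6.17, 7.16 and 7.29, a change of 1.22 ± 0.24 (limma adjusted p = 0.0047). That call was lost with median scaling (limma adjusted p = 0.052) and in the 6 arrays of lower median intensity (0.20), where the DKO rise of ILMN_2804037 was lost too (0.066). The 3 probes agree in the sign of both rises and differ in their size, from 1.36 to 3.29 in WT.

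Irgm2, the regulator associated with the Golgi, read 6.94, 6.42 and 6.18 in untreated WT and 10.73, 10.82 and 10.81 after IFNβ. In DKO it read 8.21, 8.20 and 7.98 untreated and 10.82, 10.59 and 10.33 treated. The untreated genotypes were apart and the treated genotypes overlapped. The rise was 4.27 ± 0.17 in WT, 19.3-fold, and 2.45 ± 0.17 in DKO, 5.47-fold (limma adjusted p = 3.1e-10 and 1.7e-07).

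Igtp, the regulator found on the endoplasmic reticulum and lipid droplets, read 7.43, 6.16 and 6.53 in untreated WT and 11.83, 11.57 and 11.47 after IFNβ. In DKO it read 8.39, 7.72 and 7.60 untreated and 11.03, 10.72 and 10.68 treated. Its untreated groups had the widest spread of the regulators, with an SD of 0.65 in WT and 0.42 in DKO, and replicate 1 was the highest array in both. No groups overlapped. The rise was 4.92 ± 0.27 in WT, 30.2-fold, and 2.91 ± 0.27 in DKO, 7.51-fold (limma adjusted p = 6.9e-09 and 3.6e-06).

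Among the effectors, Ifi47 had the largest measured rise of the members. It read 5.40, 4.99 and 5.37 in untreated WT and 10.60, 10.33 and 10.84 after IFNβ. In DKO it read 6.04, 6.52 and 6.14 untreated and 9.57, 10.08 and 9.88 treated. No groups overlapped, and treated DKO lay below treated WT. The rise was 5.34 ± 0.18 in WT, 40.4-fold, and 3.61 ± 0.18 in DKO, 12.2-fold (limma adjusted p = 6.2e-11 and 5.8e-09).

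Iigp1, the best-studied effector of the family in mice, was dim on all 4 of its probes. Probe ILMN_2612776 read 4.34, 4.27 and 4.54 in untreated WT and 4.50, 4.52 and 4.54 in untreated DKO, none of them detected. After IFNβ it read 6.16, 5.94 and 6.23 in WT, at least 2.30-fold higher, and 5.65, 5.73 and 5.80 in DKO, at least 1.82-fold higher (limma adjusted p = 3.8e-08 and 3.0e-06). All treated arrays were above all untreated arrays, and treated WT was above treated DKO. The other 3 probes stayed between 4.16 and 5.02 on every array and have no measured level apart from 1 treated WT array of ILMN_1229996.

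Tgtp1, an effector that is among the first to coat the parasite vacuole, read 4.24, 4.19 and 4.27 in untreated WT and 4.45, 4.66 and 4.56 in untreated DKO, none of them detected. After IFNβ it read 5.48, 6.03 and 6.05 in WT, at least 1.93-fold higher, and 6.61, 6.62 and 6.85 in DKO, at least 3.57-fold higher (limma adjusted p = 1.4e-06 and 1.0e-07). Here treated DKO was above treated WT, with no overlap. Tgtp1 has a close copy, Tgtp2, to which no probe was annotated, and the probe's sequence was not used here, so the reading may hold both.

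The size of the rises depended on the background correction, while every call named for them passed without it. Without it, as in the authors' log2 values, the WT rise was 3.85 for Ifi47, 4.16 for Igtp and 3.47 for Irgm2, and the DKO rise of Ifi47 was 2.73. The lower bounds above hold with the correction only. Without it, Iigp1 changed by 0.63 in WT and 0.40 in DKO, Tgtp1 by 0.60 and 0.87, and the dim Irgm1 probe by 0.92 in WT and 0.64 in DKO.

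**Figure D1:**
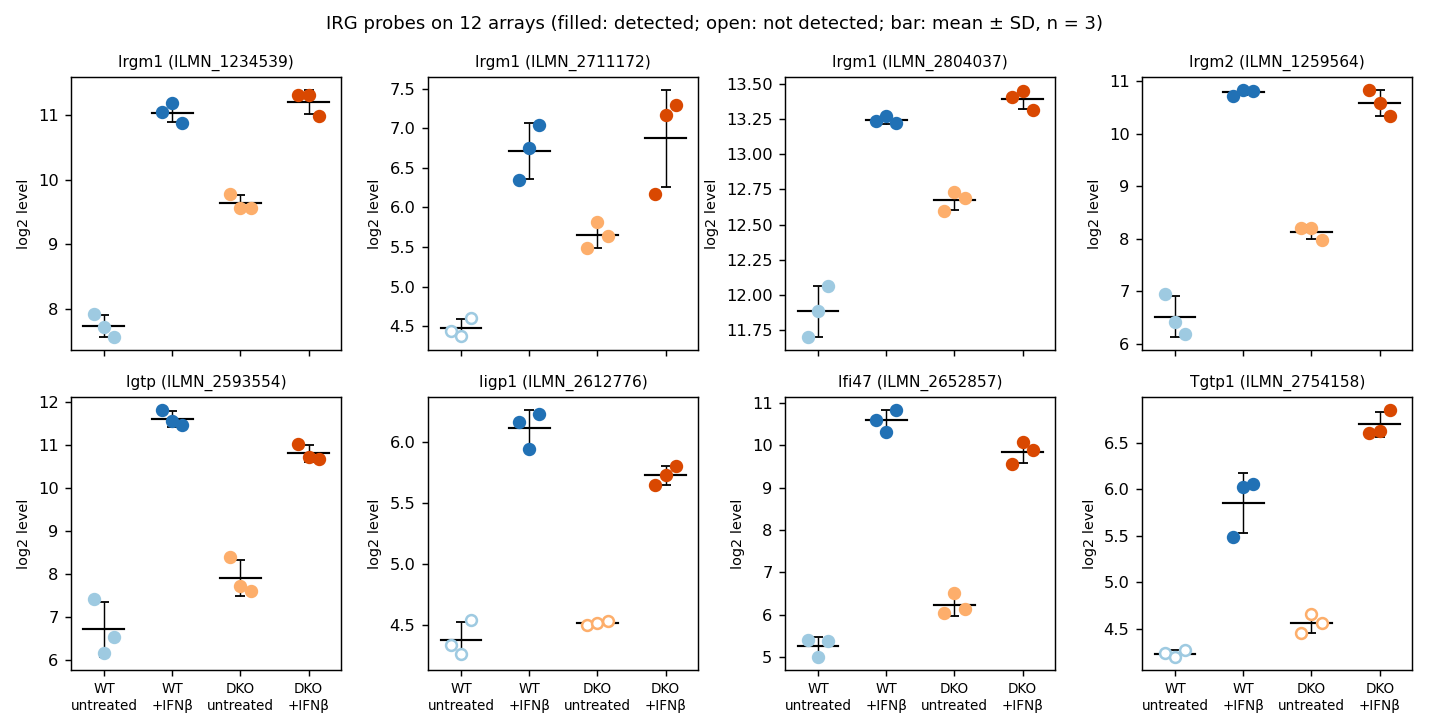
Level of each tested IRG probe on each of the 12 arrays (y axis, normalized log2 intensity, 1 scale per panel) in the 4 groups. Points are arrays, filled where detected and open where not, and bars are the mean ± SD of 3 arrays; for Irgm1, Irgm2, Igtp and Ifi47 the untreated DKO arrays lie between untreated WT and the treated arrays.

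Untreated DKO cells had higher IRG levels than untreated WT cells. All 5 probes detected on every array were higher, where 14.7% of all tested probes were higher, and no member was lower. Irgm1 was 3.71-fold higher on ILMN_1234539 (log2 difference 1.89 ± 0.13, limma adjusted p = 1.1e-07) and 1.72-fold higher on ILMN_2804037 (0.79 ± 0.11, 7.7e-05). Irgm2 was 3.06-fold higher (1.61 ± 0.17, limma adjusted p = 7.8e-06), Igtp 2.29-fold (1.19 ± 0.27, 0.0041) and Ifi47 1.97-fold (0.98 ± 0.18, 8.4e-04). The dim Irgm1 probe was at least 1.67-fold higher (limma adjusted p = 0.0023), and that call was lost on the authors' values, with a log2 difference of 0.39 (limma adjusted p = 0.062). On those values Irgm1 differed by 1.59 on ILMN_1234539 and by 0.78 on ILMN_2804037. There Irgm2 differed by 1.09, Igtp by 0.79 and Ifi47 by 0.41 (limma adjusted p = 2.6e-05, 0.0082 and 0.031). Iigp1 and Tgtp1 were undetected in both untreated groups and have no fold. On the mean profile of the 6 members, which takes in the undetected readings of Iigp1 and Tgtp1, set against untreated WT, the 3 untreated DKO arrays stood at 0.76 to 0.90 log2 units and the treated WT arrays at 3.16 to 3.27.

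After IFNβ the members no longer differed in 1 direction between the genotypes. Of the 5 probes, 2 were lower in DKO, where 14.3% of all tested probes were lower and 14.1% higher, and 3 did not pass. Ifi47 was 1.68-fold lower in DKO (-0.75 ± 0.18, limma adjusted p = 0.0059) and Igtp 1.76-fold lower (-0.81 ± 0.27, 0.036). Iigp1 was 1.31-fold lower (-0.39 ± 0.11, limma adjusted p = 0.017), and Tgtp1 was 1.79-fold higher (0.84 ± 0.14, 5.3e-04). The 95% interval of the difference ran from -0.12 to 0.45 for Irgm1 on ILMN_1234539 (limma adjusted p = 0.40), from -0.09 to 0.38 on ILMN_2804037 (0.35), and from -0.58 to 0.16 for Irgm2 (0.42). The Igtp call was lost without treated WT replicate 1 (limma adjusted p = 0.13) or 2 (0.074), or treated DKO replicate 2 (0.099) or 3 (0.11), with no detection filter (0.15) and in the arrays of lower median intensity (0.26). The Iigp1 call was lost without treated WT replicate 1 (0.060) or 3 (0.066), or treated DKO replicate 1 (0.056), with median scaling (0.082) and in the arrays of lower median intensity (0.15).

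**Figure D2:**
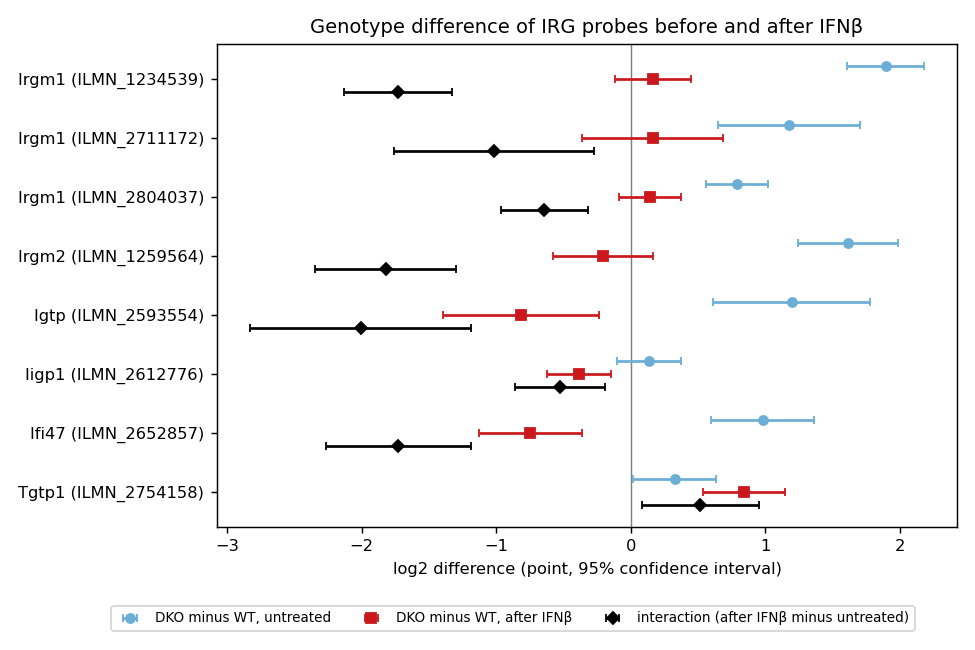
Genotype differences of each tested IRG probe (x axis, log2, point with its 95% interval), untreated, after IFNβ, and the treated minus the untreated difference. The untreated differences of Irgm1, Irgm2, Igtp and Ifi47 lie above 0, and after IFNβ those of Igtp, Iigp1 and Ifi47 lie below 0 and that of Tgtp1 above it.

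The rise on IFNβ was smaller in DKO than in WT cells for 4 of the 5 probes detected throughout, by the test of the difference between the log2 rises. Of all tested probes, 0.587% passed with a negative difference, whichever way they changed under IFNβ. The difference between the rises equals the treated genotype difference minus the untreated one. It was -1.73 ± 0.19 for Irgm1 on ILMN_1234539 (limma adjusted p = 3.0e-04), -1.82 ± 0.24 for Irgm2 (0.0016), -2.01 ± 0.38 for Igtp (0.020) and -1.73 ± 0.25 for Ifi47 (0.0028). Without background correction these differences were smaller, at -1.43, -1.29, -1.58 and -1.12 in the same order, and still passed. For Irgm1 on ILMN_1234539 and for Irgm2 the genotype difference was 1.89 and 1.61 untreated, against 0.16 and -0.21 after IFNβ. For Igtp and Ifi47 it was 1.19 and 0.98 untreated and turned to -0.81 and -0.75 after IFNβ.

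Taking arrays by their replicate number, Irgm1 rose by 3.12, 3.44 and 3.30 in WT and by 1.53, 1.75 and 1.41 in DKO on ILMN_1234539. Ifi47 rose by 5.20, 5.34 and 5.47 in WT and by 3.53, 3.56 and 3.74 in DKO. The rises of the genotypes did not overlap for either gene, nor for Irgm2, with 3.78 to 4.63 against 2.35 to 2.62, or Igtp, with 4.40 to 5.41 against 2.64 to 3.08. These genes had passed the test above on the same arrays, so the lack of overlap is no separate support. Within the arrays of lower and of higher median intensity, the difference was -1.76 and -1.72 for Irgm1, -1.48 and -2.26 for Irgm2, -2.27 and -1.89 for Igtp, and -1.74 and -1.82 for Ifi47. In the lower set each DKO group had 1 array, and in the higher set each WT group had 1. The rise of that genotype is therefore without replication in these values. The Igtp call was lost without untreated WT replicate 2 (limma adjusted p = 0.053) or 3 (0.059), treated WT replicate 1 (0.077) or 2 (0.051), or treated DKO replicate 2 (0.059) or 3 (0.068).

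The other Irgm1 probes had differences of -1.01 ± 0.35 and -0.64 ± 0.15 that did not pass (limma adjusted p = 0.36 and 0.085). With the replicate number as a block within genotype they did pass (0.0495 for ILMN_2711172 and 0.037 for ILMN_2804037). Iigp1 had -0.52 ± 0.16 (limma adjusted p = 0.23). Tgtp1 had 0.51 ± 0.20 (0.47, 95% interval 0.08 to 0.95). For both effectors the untreated end is undetected, so these are differences of fitted values and not of measured rises. As a share of the WT log2 rise, the DKO rise was 47.4% and 52.8% on the Irgm1 probes detected throughout, 57.4% for Irgm2, 59.2% for Igtp and 67.6% for Ifi47.

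**Figure D3:**
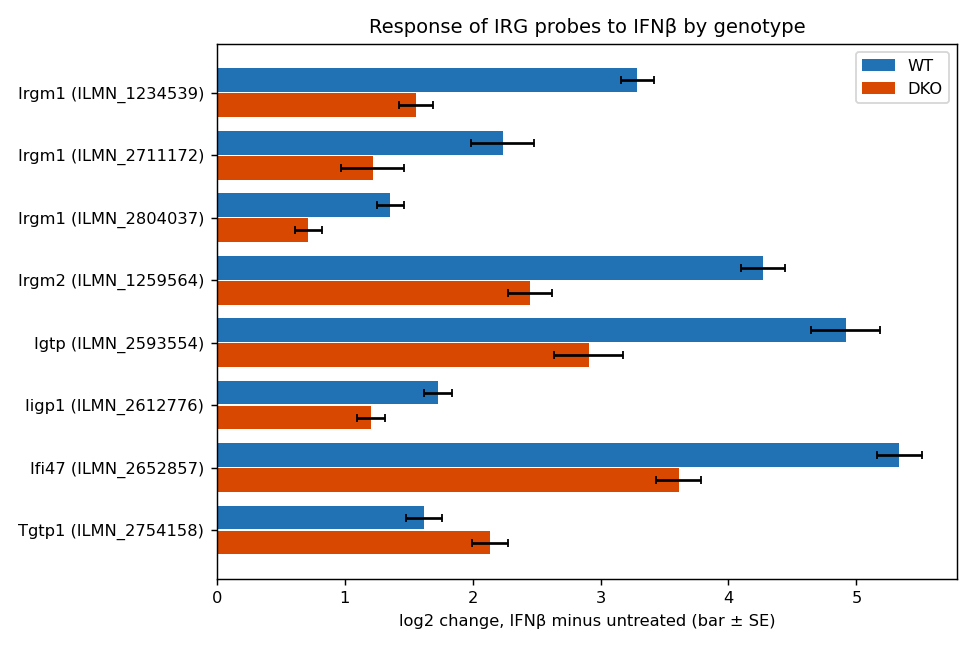
Fitted change on IFNβ (x axis, log2) of each tested IRG probe, with a bar and its SE for WT and for DKO cells. The DKO bar is shorter for the probes of Irgm1, Irgm2, Igtp, Iigp1 and Ifi47 (3.61 against 5.34 for Ifi47) and longer for Tgtp1; the bars of Iigp1, Tgtp1 and ILMN_2711172 in WT start from undetected groups.

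The genes whose profile over the 12 arrays was most like the members' mean profile, by root mean square log2 difference among 8892 genes, were Oas1a (0.146), Dtx3l (0.150), Stat2 (0.176), Ifi35 (0.205) and H2-M3 (0.246). Oas1a makes the activator of RNase L, and Stat2, undetected in untreated WT, is a subunit of the factor that binds the ISRE. Oas1a stood 0.72 log2 units above untreated WT in untreated DKO cells, 3.22 in treated WT and 2.90 in treated DKO. The other Dtx3l probe moved by 0.14 under IFNβ in WT and did not pass.

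Of 18 other IRG genes listed, 8 were on the array and 4 were tested. Gm12250, Gm4951 and Gm12185 were detected on no untreated array and entered the test through the treated arrays, so no count of rises is given. Gm12250 (Irgb10), the gene next to Igtp, rose at least 8.65-fold there and at least 2.81-fold in DKO. It was lower in treated DKO than in treated WT (-1.67, limma adjusted p = 1.5e-07). Gm4951 rose at least 6.77-fold in WT and at least 9.59-fold in DKO, and was higher in treated DKO (0.45, limma adjusted p = 0.028). Irgq, a member of the family not known as interferon-induced, changed by -0.75 and -0.70, and its 2 other probes did not pass.

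The guanylate-binding proteins are a sister family of interferon-induced GTPases that also act at pathogen vacuoles. With Gvin1, listed beside them but not itself a guanylate-binding protein, 12 genes were on the array, of which 6 were tested. Gbp2b and Gbp5 were detected on no untreated array and were tested through the treated ones. The other 4, Gbp2, Gbp3, Gbp7 and Gvin1, were detected on all 12 arrays and rose in both genotypes. Their median log2 change was 4.53 in WT and 3.13 in DKO, where 7.37% and 5.72% of all tested probes rose. Gbp2 changed by 6.04 and 4.49 on its brightest probe, Gbp3 by 4.85 and 3.19, and Gbp7 by 4.22 and 3.07. The 2 other Gbp2 probes changed by 3.28 and 4.32 in WT and by 3.34 and 4.16 in DKO, with untreated genotype differences of 0.04 and 0.10 that did not pass, against 1.49 on the brightest. Untreated, the 4 were higher in DKO, with a median of 1.41, where 14.7% of all tested probes were higher. The difference between the rises passed for 1 of the 4, Gvin1 (-1.12, limma adjusted p = 0.038), where 0.587% of all tested probes passed with a negative difference. The other Gvin1 probe gave 0.08. Second probes of Gbp3 (-1.46, 0.014) and Gbp7 (-1.10, 0.035) passed that test by limma, while the brightest probes of both genes did not.

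Genes of the autophagy and vacuole machinery that IRG proteins work with passed the test for IFNβ about as often as all probes. Of 23 tested, 2 rose and 2 fell in WT, with a median of 0.03, where 7.37% of all tested probes rose and 8.26% fell. In DKO 2 of the 23 rose, where 5.72% of all probes did. The risers were Trim21, an antibody receptor and ubiquitin ligase (2.92 in WT, 1.86 in DKO), and Lgals8, a lectin that marks damaged vacuoles (2.27 and 1.86). A second Trim21 probe rose by 0.88 in WT and did not pass in DKO (0.40). Between untreated genotypes 2 of the 18 were higher and 5 lower in DKO, where 14.7% of all tested probes were higher and 15.7% lower. The lower ones were Lgals3 (-1.05), Becn1 (-0.78), Wipi2 (-0.62), Gabarapl1 (-0.55) and Atg5 (-0.41). Of the other Wipi2 probes, ILMN_2682516 was lower (-0.69) and ILMN_1240515 did not pass (-0.34). The higher ones were Trim21 (1.21, limma adjusted p = 2.2e-06) and Map1lc3a (0.80, 0.0030). The other probe of each did not pass (0.17 and 0.06). The difference between the rises passed for Trim21 (-1.06, limma adjusted p = 0.0039), though not on its other probe (-0.47). Atg3, an enzyme of the conjugation pathway, was detected on 11 arrays and was also lower (-2.07, limma adjusted p = 1.6e-06). After IFNβ Atg3 was again lower (-2.11).

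Genes that carry or restrain the interferon signal were counted by their brightest probe, for the 11 detected on all 12 arrays. Of these, 6 rose and 1 fell in WT and 5 rose in DKO. Over all tested probes, 7.37% rose and 8.26% fell in WT, and 5.72% rose in DKO. Ifngr2 did not pass on its brightest probe, but its other probes fell in both genotypes. ILMN_2592709 changed by -0.98 in WT and -0.65 in DKO, and ILMN_1258300 by -0.72 and -0.59. Usp18, which restrains the type I receptor, changed by 4.37 in WT and 2.11 in DKO. It was higher in untreated DKO by 2.22 on the log2 scale, and its rise differed by -2.26 (limma adjusted p = 0.0018). Stat2, outside these 11, rose at least 6.05-fold in WT. Irf1, a transcription factor of IRG and guanylate-binding protein genes, changed by 1.98 in WT and 1.41 in DKO, and was lower in treated DKO (-0.67). Its other probes changed by 0.83 to 2.20 in WT. Their treated difference passed on ILMN_2599782 (-0.64) and ILMN_2649067 (-0.70). It did not pass on ILMN_2624100 (-0.35, limma adjusted p = 0.073) or ILMN_2649068 (-0.61, 0.059). Irf9, the DNA-binding subunit of the ISRE complex, was higher in untreated DKO (0.83), and Socs3, an inhibitor of cytokine signalling, was lower (-1.03).

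**Figure D4:**
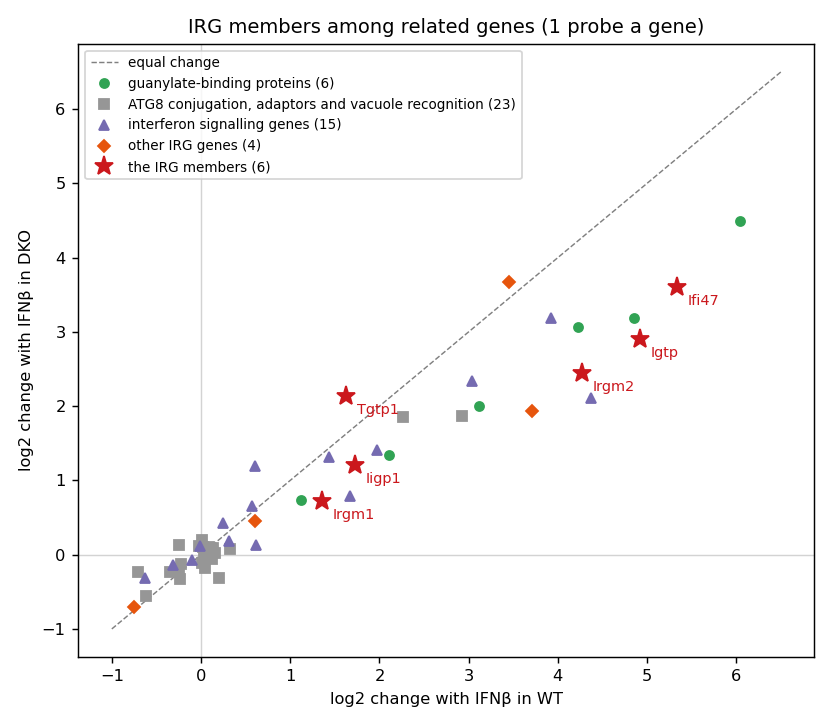
Fitted log2 change with IFNβ in WT (x axis) against that in DKO (y axis), each point being 1 gene by its brightest probe, with a dashed line of equal change. The points marked as guanylate-binding proteins include Gvin1. The IRG members other than Tgtp1 lie below the line, and Gbp2 lies farthest out at 6.04 in WT and 4.49 in DKO. The 23 tested autophagy and vacuole genes have a median of 0.03 in WT. Genes undetected in untreated cells are plotted at their fitted values.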

How the data were processed

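Biotin-labelled cRNA from 12 samples was read on Illumina mouse bead arrays. The authors deposited 1 linear intensity per probe and array, without background correction or normalization per the file headers and values, and a detection p-value in steps of 1 in 936. Their deposited log2 table equals the quantile-normalized log2 intensity and served as an alternative; the sources used here do not name the software. Groups came from the labels.

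Gene names came from the platform annotation, where 34885 probes had 1 gene, 18 several and 10378 none, and all 34885 gene IDs matched the reference table, which changed 0 symbols. Intensities were background-corrected with normexp from the detection p-values (offset 16), quantile-normalized and put on the log2 scale (neqc of limma 3.58.1 in R 4.3.3; the data.table package was version 1.17.8). A probe was tested if at least 3 arrays gave it a detection p under 0.01, which left 15856. In limma, 4 group means were fitted to the 12 arrays together (8 residual degrees of freedom), moderated with eBayes, with Benjamini-Hochberg adjustment over all tested probes and calls at an adjusted p under 0.05. A fold against a group with no detected array is a lower bound, taken, array by array, against the dimmest detected signal or the probe's own signal, whichever was brighter. The number of arrays limits the precision.

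All member probes were named. Related genes came from 4 lists, by the brightest probe. The members and lists were chosen with earlier results of these data known. The test was checked on simulated data. The simulated noise was independent between arrays, so that check does not cover pairing by replicate number or the sets of median intensity. After group means were removed, same-numbered arrays correlated at 0.31 to 0.62 within a genotype, and different-numbered ones at -0.43 to 0.23. Within a genotype, same-numbered arrays always shared the set of median intensity. Different-numbered arrays of the same set and genotype gave 0.08 to 0.23. Across genotypes, same-numbered arrays gave -0.36 to 0.43, with the sign following the set. There, within a set, same-numbered arrays gave 0.33 to 0.43 and different-numbered ones 0.30 to 0.43. The replicate numbers therefore pair arrays within a genotype only. That rests on the data, not on the labels. Alternatives changed the background correction, the normalization, the filter, the replicate block and the array set, and left out each array. Promoter windows came from a RefSeq table. Probe sequences were not used here, so probes were not placed on the genome, and 3 Iigp1 probes below the filter were not tested.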

Additional observations from a re-analysis of the deposited data

Results flagged for a closer look

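For 4 probes the rise on IFNβ differed between the genotypes by the test of the difference itself. The DKO rise minus the WT rise was -1.73 for Irgm1 (ILMN_1234539), -1.82 for Irgm2, -2.01 for Igtp and -1.73 for Ifi47 on the log2 scale. The paired rises of the genotypes did not overlap for any of the 4. The 4 were picked by that test on the same arrays, so the lack of overlap is no separate support. The Igtp value rests on the widest spread of the 4, with a standard error of 0.38. No group had enough arrays to be searched for a single array far from the rest.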

How the results depend on the processing

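Over 26 alternatives, 949 single-probe results kept their direction and their side of the threshold, 10 newly passed, 26 no longer passed and 6 changed sign. The authors' log2 values equal those without background correction. Both alternatives gave the same results and each is counted, so they are not separate checks. Among probes detected on all 12 arrays, 5 of 5 were called for IFNβ in WT, 5 of 5 in DKO and 2 of 5 between treated genotypes. Of all 11933 probes tested there, 2098, 1136 and 3334 were called in either direction. With the filter used above, 4 of 8 were called between treated genotypes. In the lower-intensity arrays alone, 1 probe in place of 4 was called for the difference between the rises and 2 between treated genotypes; only 6 arrays enter. Leaving out each array gave, over the 8 tested probes, 3 to 4 calls for the difference between the rises. It gave 6 to 7 calls untreated and 2 to 4 treated, the 2 without treated WT replicate 1. The 8 include Tgtp1 and 1 Iigp1 probe, which were tested only through their rise. Calls for IFNβ over the 8 are therefore not counted here. The sign changes were all in genotype differences that did not pass. After IFNβ, Irgm1 (ILMN_2711172) gave -0.0028 with the array set as a block, -0.38 in the lower set, -0.023 without treated WT replicate 1 and -0.046 without treated DKO replicate 3, in a range of -0.046 to 0.52 with 1 array left out. Irgm2 gave 0.048 in the lower set, and untreated Iigp1 gave -0.014 in the higher set. The cause was not tested.

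The replicate block within genotype added ILMN_2711172 and ILMN_2804037 of Irgm1 to the calls for the difference between the rises (limma adjusted p = 0.0495 and 0.037) and changed no other call. ILMN_2804037 also passed with the authors' log2 table (0.019) and at offset 50 (0.025). In the lower set the difference between the rises was not called for Irgm2 (0.15), Igtp (0.24) or Ifi47 (0.068), and with no filter it was not called for Igtp (0.15). Iigp1 after IFNβ was not called with median scaling (0.082).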
